A study of Mus musculus with 21 samples.

Results

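The 7 arrays of mouse CD8+ T cells cultured in leukaemia-conditioned medium differed in how far they had moved from cells kept in fresh medium, and the size of that response is described here array by array and gene by gene. The conditioned medium came from WEHI-3B, a myelomonocytic leukaemia line of the mouse that stands in for acute myeloid leukaemia (AML), so these 7 arrays of the 21 in the series are called the AML arrays. The genes followed were those with 1 symbol in the platform's annotation, 1 transcript cluster per symbol and a mean log2 level of at least 6 over all 21 arrays, which gave 8584 of the 19505 genes in the table. For each gene the standard deviation (SD, in log2 units) over the 7 AML arrays was set beside the SD over the 7 fresh-medium arrays. At the edge of the level filter, *Ovol3* with a mean of 6.0006 was kept and *1700092M07Rik* with 5.9971 was not.

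All 3 groups of 7 biological replicates held spleen T cells of wildtype mice, with CD3/CD28 beads as the activating signal throughout, and CD8+ cells were isolated again after 48 h in culture. The groups differed in the medium: fresh medium, filtered supernatant of WEHI-3B cells, or filtered supernatant of dendritic cells grown from bone marrow (DC arrays). WEHI-3B is 1 line, so all 7 AML arrays stand for the same leukaemia. Replicates carry the numbers 1 to 7 in every medium, and whether equal numbers share a mouse, a day or a batch of medium is not stated.

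T cells that divide after activation take up glucose and break it down by glycolysis, and the transcription factor HIF-1 raises the genes of glucose uptake, glycolysis and lactate export when oxygen is short or when the T cell receptor is engaged. TGF-beta, in contrast, acts through SMAD proteins: in CD8+ T cells it induces its own feedback inhibitors and the integrin CD103 and lowers cytotoxic genes. Immediate early genes such as those of the EGR and NR4A families follow recent T cell receptor signals.

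Markers bore out the labelled cell type. The mean log2 level of 9 CD8+ T cell markers lay between 10.49 and 10.72 in the AML arrays and between 10.51 and 10.72 in the fresh-medium arrays. Of 10 myeloid markers 0 reached a level of 6, and their mean lay between 4.09 and 4.27 in the AML arrays against 4.04 to 4.26 in fresh medium. The labels are at odds in 1 field, which gives CXCL12-abundant reticular cells as the cell type. *Cd4*, the co-receptor of helper T cells, lay between 7.80 and 9.03 in the AML arrays and between 7.25 and 8.16 in fresh medium, and a mean of 4 natural killer (NK) cell markers between 5.13 and 5.64 against 4.98 to 5.25. AML replicates 4 and 5, which stand apart in what follows, were at 8.38 and 8.64 for *Cd4*, in the middle of the AML arrays. The mean of 3 regulatory T cell markers, relative to fresh medium, was 0.30, 0.38, 0.18, 0.34, 0.57, -0.07 and 0.13 in AML replicates 1 to 7, against -0.19 to 0.19 in fresh medium. Of these, *Lrrc32*, a surface carrier of latent TGF-beta, was below the level filter with a mean of 5.68. It was at 6.86 and 7.37 in replicates 4 and 5 against 4.86 to 6.08 in fresh medium. In the same arrays *Ctla4* was lower, at 10.11 and 10.34 against 10.66 to 11.17 in fresh medium. *Ikzf2* was at 9.32 and 9.25 against 8.75 to 9.19. The part of these cell types in the results was not tested, and in bulk RNA fewer cells of a type and less RNA per cell cannot be told apart.

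The AML arrays fell into 3 levels of response. Replicates 4 and 5 were the farthest from fresh medium: 69 and 116 genes were at least 2-fold above the mean of the fresh-medium arrays and 153 and 169 at least 2-fold below it. Replicates 1, 2 and 3 had 18, 28 and 12 genes above and 28, 21 and 22 below. Replicates 6 and 7 had 6 and 3 above and 5 and 3 below, close to the DC arrays with 0 to 4 above and 1 to 6 below. Within fresh medium, each array was set against the mean of the other 6. Replicate 1 stood apart with 46 genes at least 2-fold below that mean, against 0 to 3 in the other fresh-medium arrays.

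The arrays were then set against each other over all genes. When the difference of each AML array from the fresh-medium mean was regressed, across the 8584 genes, on the mean difference of the other 6 AML arrays, the slopes of replicates 1 to 7 were 0.71, 0.74, 0.69, 1.67, 1.94, 0.33 and 0.38. A slope of 1 would be a response as large as that of the other arrays. Against the fresh-medium array of the same number in place of the fresh-medium mean, the slopes were 0.77, 0.82, 0.64, 1.61, 1.74, 0.21 and 0.15, in nearly the same order. The first set of slopes subtracts the same fresh-medium mean on both sides, which alone gives a slope above 0, so 0.33 and 0.38 do not show a direction shared with the other arrays. The number-matched slopes use no array on both sides, and those of replicates 6 and 7 were the lowest. Genes are not independent replicates, so the slopes are descriptions of these arrays. With replicates 4 and 5 left out, the slopes of replicates 6 and 7 on the remaining arrays were 0.365 and 0.481, and those of replicates 1, 2 and 3 were 1.00, 1.10 and 1.04.

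**Figure D1:**
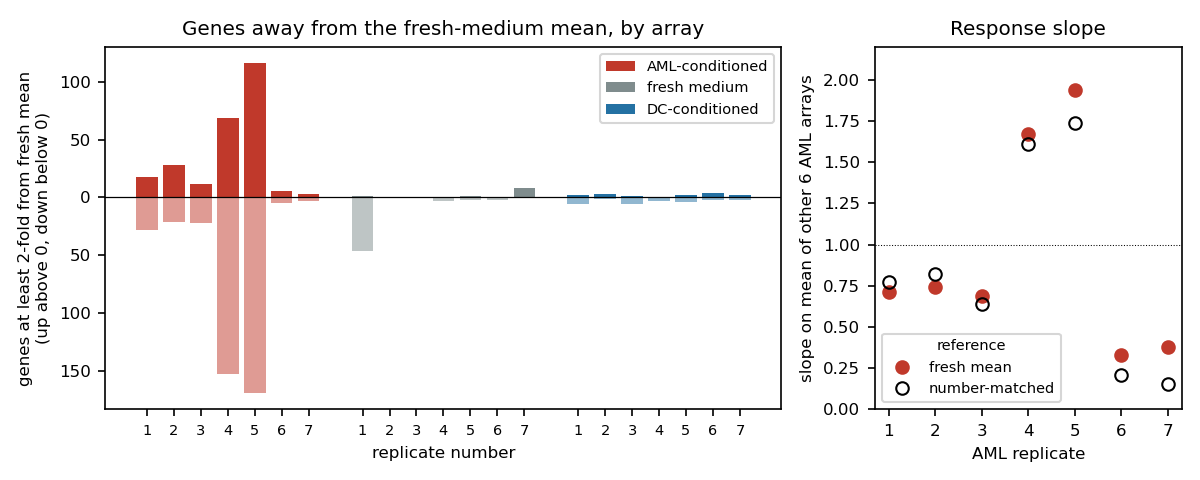
Left, number of genes at least 2-fold above (bars upward) or below (bars downward) the mean of the 7 fresh-medium arrays, for each of the 21 arrays. Each fresh-medium array was set against the mean of the other 6. Right, slope of each AML array on the mean of the other 6, with the fresh-medium mean (filled) or the fresh-medium array of the same number (open) as reference; replicates 4 and 5 lie above 1 and replicates 6 and 7 below 0.5.

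A small majority of genes had a larger SD after AML-conditioned medium than in fresh medium. The median SD was 0.159 over the AML arrays, 0.153 over the fresh-medium arrays and 0.142 over the DC arrays, and the SD was larger in the AML arrays than in fresh medium for 4607 genes (53.7% of 8584). It was larger in the AML than in the DC arrays for 4924 (57.4%) and larger in the DC than in the fresh-medium arrays for 4180 (48.7%). A larger difference lay in a minority of genes with a wide spread. An SD of at least 0.5 was found for 183 genes (2.13%) in the AML arrays, for 34 (0.396%) in fresh medium and for 90 (1.05%) in the DC arrays, and an SD of at least 1 for 20 (0.233%), 0 and 0. Without AML replicates 4 and 5 the count at 0.5 fell to 49 (0.571%), against 68 (0.792%) in fresh medium without the arrays of those numbers. Without its replicate 1 the fresh-medium count was 16 (0.186%) and the fresh-medium median SD 0.134. Without replicates 4 and 5 the AML median SD was 0.129.

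**Figure D2:**
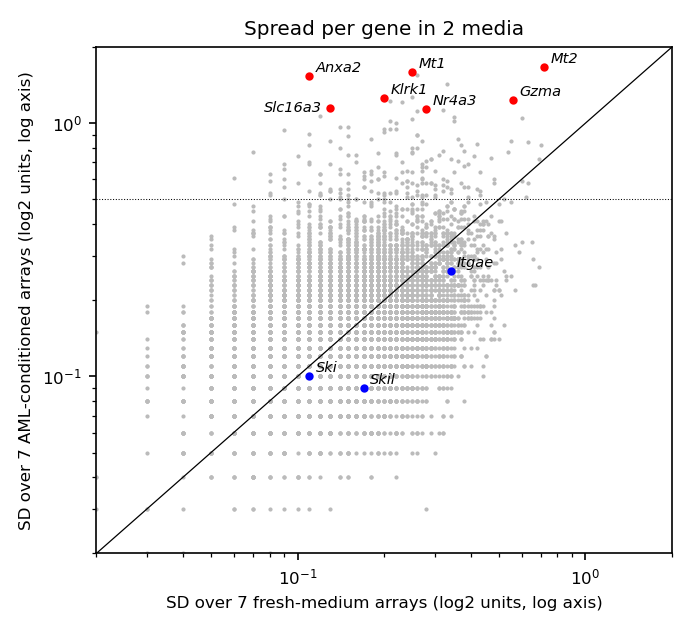
SD over the 7 AML arrays (vertical) against SD over the 7 fresh-medium arrays (horizontal) for 8584 genes, both axes logarithmic and in log2 units, values rounded to 0.01. The solid line marks equal SD and the dotted line an SD of 0.5; red points are uneven genes such as *Anxa2* (1.53 against 0.11) and blue points evenly raised genes such as *Ski* (0.10 against 0.11).

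A test of the spread called 35 genes. The absolute deviations of the arrays from their group mean were compared with limma over all 21 arrays, and 35 of the 8584 genes (0.408%) deviated more in the AML arrays than in fresh medium at a Benjamini-Hochberg adjusted p under 0.05, against 0 that deviated less. At an unadjusted p under 0.05 there were 914 genes with a larger and 354 with a smaller deviation (10.6% and 4.12%). The same test called 28 genes (0.326%) with more and 20 (0.233%) with less deviation in the AML than in the DC arrays, with 864 (10.1%) and 591 (6.88%) at an unadjusted p under 0.05. Between DC and fresh-medium arrays limma called 0 in either direction, with 572 (6.66%) and 352 (4.1%) at an unadjusted p under 0.05. In 28 of the 35 genes AML replicates 4 and 5 were the 2 lowest of the 7, and in 6 the 2 highest. Over all 8584 genes these counts were 1915 and 1406. The count was 0 without AML replicate 4, 0 without AML replicate 5, 15 without both and 192 to 223 without any one of the other 5 AML arrays. It was 0 to 16 without any one fresh-medium array and 9 to 21 without any one DC array. The 35 genes are thus not a stable list, and the values in each array are given for those described. Of the 35, *Lad1* and *Nupr1* passed the level filter only through the AML arrays. Their means were 5.99 and 5.79 in fresh medium and 5.78 and 5.67 in the DC arrays.

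The test of the mean called few of the 35 genes with a wider spread. By limma 1 also had a higher and 5 a lower mean in the AML arrays, and 29 had no called difference. The 1 higher gene was *Nupr1*, which passed the level filter only through its AML values. At an unadjusted p above 0.05 by limma there were 12 of the 35. A wide spread in the AML arrays enters the test of the mean and weakens it. The 29 therefore do not show that the mean was unchanged. In the whole set, limma called 205 genes higher (2.39%) and 228 lower (2.66%) in the AML arrays than in fresh medium. With each array centred on its median the split was 229 higher and 156 lower. Without AML replicates 4 and 5 together it was 43 and 47, without replicate 4 alone 93 and 98, without replicate 5 alone 76 and 98, and without replicates 6 and 7 together 421 and 470. Leaving out fresh-medium replicate 1, 2 or 4 gave 120, 117 or 124 higher genes, fresh-medium replicate 2 or 4 gave 121 or 145 lower genes, and AML replicate 6 gave 350 lower genes. The lower genes were the less even: their median SD was 0.27 over the AML arrays against 0.14 in fresh medium, and for 209 of the 228 it was the larger of the 2. For the 205 higher genes the medians were 0.21 and 0.16, and 135 had the larger SD in the AML arrays.

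The 183 genes with an SD of at least 0.5 varied together along few patterns. In 163 of them (89.1%) AML replicates 4 and 5 were the 2 arrays at one end, the 2 lowest for 116 genes and the 2 highest for 47. In 97 (53.0%) replicates 6 and 7 were the 2 at one end. Over all 8584 genes replicates 4 and 5 were the 2 lowest for 1915 and the 2 highest for 1406. Replicates 6 and 7 were the 2 highest for 847 and the 2 lowest for 804. A choice by large SD favours genes in which the outlying arrays are extreme, so the shares describe chosen genes. For comparison, the pair most often at an end was replicates 1 and 3 in 47 of 90 genes (52.2%) among the DC arrays and replicates 6 and 7 in 14 of 34 (41.2%) in fresh medium. The first component, the pattern over arrays with the most variance, held 57.1% of the variance of the 8584 genes in AML arrays. It held 67.2% in DC arrays, where it set replicates 1 to 3 apart from 4 to 7, and 49.7% in fresh medium. Joint variation was thus not particular to the AML arrays. Most genes fell into 4 patterns: replicates 4 and 5 lowest and 6 and 7 highest (56 genes), 4 and 5 lowest with 6 and 7 not highest (60), 4 and 5 highest and 6 and 7 lowest (28), and 4 and 5 highest alone (19). A graded gene, in what follows, ranks 6 and 7 at the opposite end from 4 and 5, and a stepped gene sets 4 and 5 apart from the other 5 arrays.

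**Figure D3:**
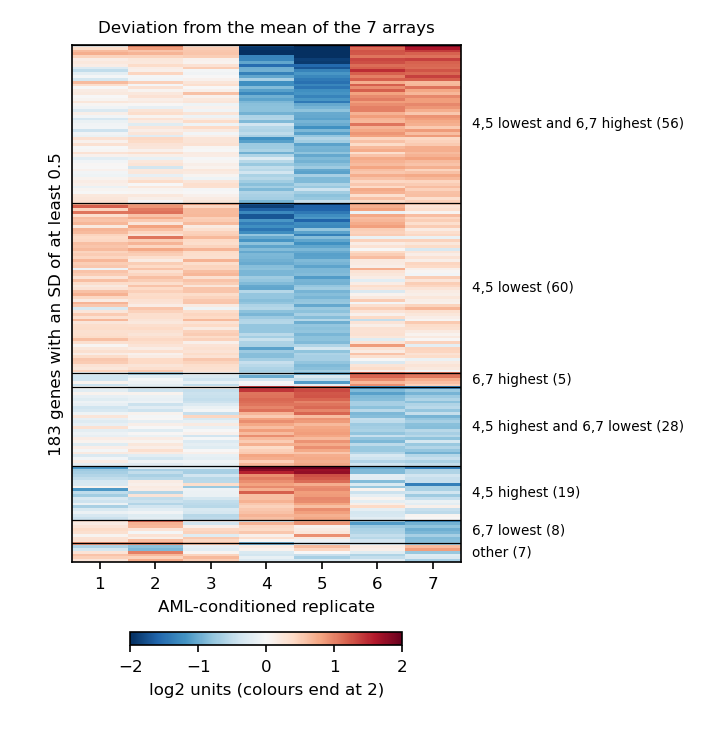
Deviation from the mean of the 7 AML arrays (log2 units, colours end at 2) for the 183 genes with an SD of at least 0.5, one line per gene, ordered by pattern and, within it, by SD. Columns are AML replicates 1 to 7; replicates 4 and 5 are the 2 extreme arrays in 163 genes.

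Genes of the hypoxia response and of glycolysis were graded. The mean difference of 20 hypoxia genes from fresh medium was -0.80, -0.65 and -0.78 in AML replicates 1 to 3, -1.26 and -1.47 in replicates 4 and 5, and -0.12 and -0.15 in replicates 6 and 7. The fresh-medium arrays lay between -0.15 and 0.09 and the DC arrays between -0.41 and 0.19. For 18 glycolysis genes the values were -0.61, -0.51, -0.59, -0.97, -1.23, 0.03 and -0.08 in the order of the replicates, against -0.13 to 0.10 in fresh medium. Replicates 6 and 7 thus lay at or within the fresh-medium range for both lists, and the other 5 AML arrays lay outside it. Within the DC arrays the hypoxia mean was -0.16, -0.13 and -0.41 in replicates 1 to 3 and 0.06 to 0.19 in replicates 4 to 7. Against the fresh-medium array of the same number the AML hypoxia values were -0.75, -0.69, -0.64, -1.23, -1.52, -0.22 and -0.19. The list means had an SD of 0.51 (hypoxia) and 0.45 (glycolysis) over the AML arrays, against 0.08 and 0.08 in fresh medium, and of 0.338 and 0.305 without AML replicates 4 and 5.

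Most members of both lists took part. Of 26 hypoxia genes listed 25 were measured and 20 passed the level filter, and of 21 glycolysis genes 19 and 18. By limma 16 of 20 hypoxia genes and 11 of 18 glycolysis genes fell in the mean, against 2.66% of all genes. The numbers that rose were 0 and 1, against 2.39%. The median SD ratio of AML to fresh-medium arrays was 2.88 and 4.34 against 1.06 for all 8584 genes. In AML replicate 5, 18 of 20 hypoxia genes and 17 of 18 glycolysis genes lay below every fresh-medium array; in replicate 6 these counts were 5 and 2. Over all 8584 genes the counts were 2262 in replicate 5 and 1083 in replicate 6, so the 2 of 18 is close to that share. Of the 38 genes in the lists 14 (36.8%) had an SD of at least 0.5 with the graded pattern, which is 25% of the 56 genes of that pattern. No member of either list was among the 35 genes called by the spread test.

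The sensor and feedback enzymes of the pathway varied widely. *Egln3*, a prolyl hydroxylase that marks HIF for breakdown and is itself induced by it, was at 9.25 to 9.39 in AML replicates 1 to 3, at 7.86 and 7.28 in replicates 4 and 5 and at 10.50 and 10.52 in replicates 6 and 7. Its lowest, median and highest values in fresh medium were 10.28, 10.72 and 10.83, so replicates 6 and 7 overlapped with fresh medium and the other 5 did not. The mean difference was -1.46 (SE 0.35, adjusted p = 0.0234 by limma), and -0.826 (adjusted p = 0.0937) without AML replicates 4 and 5. *Egln1*, the related main oxygen sensor, ran from 9.01 in replicate 5 to 10.39 in replicate 6. *Hif1a* itself, which encodes the oxygen-regulated subunit, was stepped: it was at 10.06 and 10.26 in replicates 4 and 5 and at 10.65 to 10.89 in the other AML arrays, against a lowest value of 10.82 and a median of 10.86 in fresh medium.

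Transporters that bring glucose in and lactate out followed the same order. *Slc16a3*, the lactate exporter MCT4, was at 8.99 to 9.14 in AML replicates 1 to 3, at 7.88 and 7.01 in replicates 4 and 5 and at 10.22 and 10.11 in replicates 6 and 7, against 10.01, 10.30 and 10.41 (lowest, median, highest) in fresh medium. Its SD was 1.15 against 0.13, and the mean fell by 1.35 (SE 0.32, adjusted p = 0.024 by limma), with an adjusted p of 0.0669 without AML replicate 4 and 0.0756 without replicates 4 and 5. *Slc2a3*, a high-affinity glucose transporter, was at 8.65, 8.94 and 9.08 in AML replicates 1 to 3, at 8.34 and 7.58 in replicates 4 and 5 and at 10.20 in both replicates 6 and 7, against 10.12 to 10.63 in fresh medium. It fell by 1.38 in the mean (SE 0.27, adjusted p = 0.00724 by limma). *Slc2a1*, the common glucose transporter of activated T cells, was lowest in AML replicate 5 at 9.24 and lay at 11.10 and 11.16 in replicates 6 and 7, against 10.95 to 11.31 in fresh medium.

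Enzymes of glycolysis and mitochondrial regulators covered a wider range of sizes. *Aldoc*, an aldolase, was at 9.67 to 9.72 in AML replicates 1 to 3, at 7.91 and 7.01 in replicates 4 and 5 and at 10.29 and 10.32 in replicates 6 and 7, while *Aldoa*, the main aldolase of T cells, moved between 11.05 and 11.90 and lay below every fresh-medium array in 7 of 7 (11.96 to 12.11 there). *Ndrg1*, a hypoxia-induced gene, ran from 7.35 in replicate 5 to 10.02 in replicate 7 against 9.77 to 10.24, and *Bnip3*, a mitophagy receptor, from 7.34 to 9.88 against 9.70 to 10.02. *Ak4*, a mitochondrial adenylate kinase, ran from 5.22 in replicate 5 to 8.03 in replicate 6 against 7.64 to 8.50. Of these, *Ndrg1* (-1.39), *Bnip3* (-1.13), *Ak4* (-1.53) and *Aldoa* (-0.47) passed the test of the mean by limma and *Aldoc* did not (-1.07, adjusted p = 0.109).

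Not every gene followed the gradient. *Gapdh*, a glycolytic enzyme, had an SD of 0.06 in AML and 0.06 in fresh-medium arrays and a mean difference of -0.06. *Vegfa*, the HIF-induced angiogenic factor, lay between 7.16 and 7.62 in the AML arrays and between 7.02 and 7.70 in fresh medium. *Eno3*, an enolase, went the other way: it rose by 0.49 (adjusted p = 0.00824 by limma), with all AML arrays between 7.41 and 7.78 and all fresh-medium arrays between 6.84 and 7.25. *Hk2*, the inducible hexokinase, separated replicates 6 and 7 (7.99 and 7.53) from the other 5 AML arrays (6.56 to 6.95) without setting replicates 4 and 5 apart. *Ero1a*, an oxidase of protein folding, and *Plod2*, a collagen lysyl hydroxylase outside both lists, also had replicates 6 and 7 at the top, at 10.35 and 10.13 for *Ero1a* and 7.47 and 7.35 for *Plod2*, and the other 5 at 8.92 to 9.37 and 5.31 to 6.07.

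**Figure D4:**
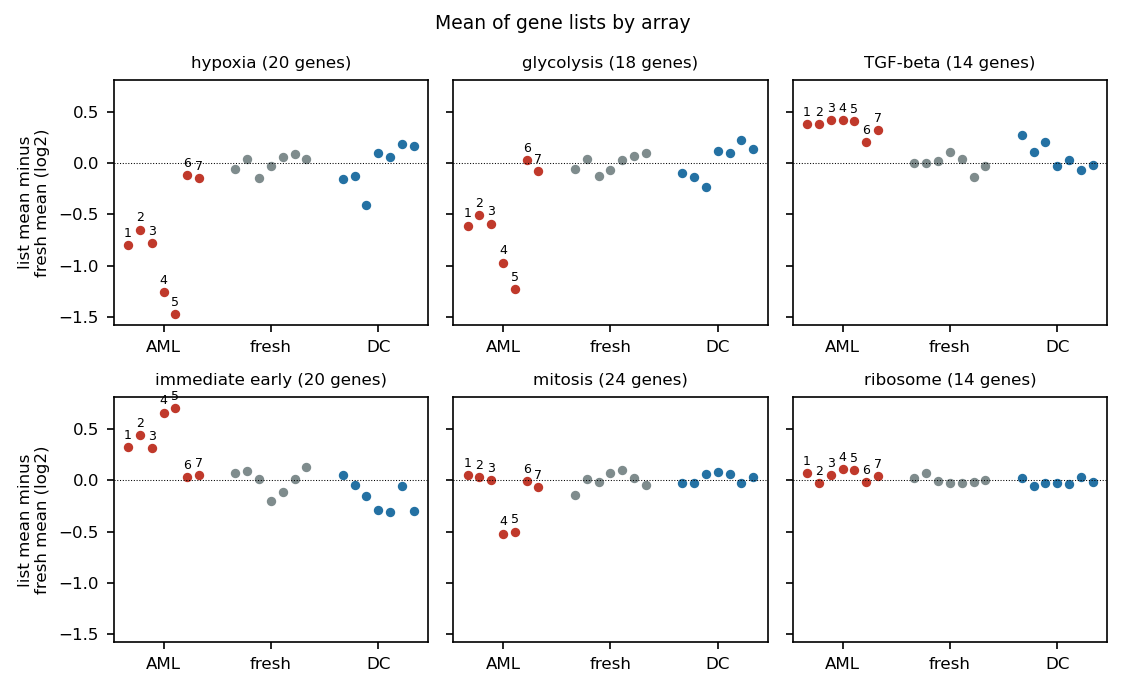
Mean of the log2 levels of 6 gene lists in each array, minus its mean over fresh medium; points are single arrays, numbered for the AML group, and DC stands for medium of dendritic cells. The hypoxia and glycolysis lists spread over the AML arrays by more than 1 log2 unit, while the TGF-beta list lies between 0.20 and 0.42 in all 7.

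Promoter sequences are shown for the graded genes *Egln3* and *Slc16a3* and for the metallothionein gene *Mt1*, because these genes moved together and the short sequences bound by HIF and by the metal-responsive factor MTF-1 are known. Windows of 300 bases, 250 before to 50 after the start, come from RefSeq (GRCm38.p6), for 7061 of the 8584 genes. Capitals mark ACGTG or GCGTG on either strand for *Egln3* (chr12:54203825-54204124, minus strand) and *Slc16a3* (chr11:120948817-120949116, plus strand), and TGCGCNC or TGCACNC on either strand for *Mt1* (chr8:94178839-94179138, plus strand).
Egln3 promoter: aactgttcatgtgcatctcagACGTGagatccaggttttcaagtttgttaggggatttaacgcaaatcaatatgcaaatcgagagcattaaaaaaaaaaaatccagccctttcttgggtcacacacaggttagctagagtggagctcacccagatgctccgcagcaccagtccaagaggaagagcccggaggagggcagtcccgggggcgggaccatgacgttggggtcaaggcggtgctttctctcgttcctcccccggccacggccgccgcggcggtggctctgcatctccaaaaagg
Slc16a3 promoter: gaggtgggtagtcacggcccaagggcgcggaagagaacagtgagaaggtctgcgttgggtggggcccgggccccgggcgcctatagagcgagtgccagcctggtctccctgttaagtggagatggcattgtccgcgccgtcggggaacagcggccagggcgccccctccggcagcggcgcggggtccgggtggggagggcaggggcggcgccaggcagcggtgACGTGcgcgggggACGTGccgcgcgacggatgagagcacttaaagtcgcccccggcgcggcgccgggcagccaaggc
Mt1 promoter: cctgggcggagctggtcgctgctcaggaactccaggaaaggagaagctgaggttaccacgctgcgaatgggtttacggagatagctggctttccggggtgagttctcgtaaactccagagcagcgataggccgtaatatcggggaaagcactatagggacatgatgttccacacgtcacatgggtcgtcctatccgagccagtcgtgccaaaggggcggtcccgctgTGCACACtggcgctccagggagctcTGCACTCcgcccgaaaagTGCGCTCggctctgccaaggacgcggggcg
ACGTG or GCGTG was found in 75% of 60 windows of the 56 graded genes (42 with a window), in 63.6% of the 8946 windows of all 8584 genes and in 43.8% of 32841 windows of the whole promoter table. Among the 60 genes with replicates 4 and 5 lowest and 6 and 7 not highest the share was 53.6% of 56 windows, and among those in which they were highest 51% of 51. ACGTG overlaps with the E-box CACGTG, and a match of so few letters is a description of the window and not evidence of binding. TGCGCNC or TGCACNC was found in 38.3% of the windows of the graded genes, 36.1% of those of the 8584 genes and 25.7% of the whole table.

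The widest spreads over the AML arrays were those of *Mt2*, *Mt1*, *Scd1* and *Anxa2*. *Mt1*, a metal-binding protein with 3 capital matches in the window above, was at 9.93, 10.40 and 10.07 in AML replicates 1 to 3, at 7.61 and 7.04 in replicates 4 and 5 and at 10.70 and 11.17 in replicates 6 and 7, against 10.35, 10.57 and 11.14 in fresh medium. Its SD was 1.59 against 0.25, called by the spread test (adjusted p = 0.0389 by limma), and its mean difference of -1.09 (SE 0.43) was not called. *Mt2*, its neighbour on the chromosome, had an SD of 1.66 in the AML arrays and also the widest spread of any gene in fresh medium, 0.72. *Scd1*, which makes monounsaturated fatty acids, crossed the fresh-medium range: it was at 6.63 and 6.81 in AML replicates 4 and 5, below all fresh-medium arrays (9.04 to 9.68), and at 10.19 and 10.33 in replicates 6 and 7, above all of them. Its mean difference was -0.42 (SE 0.44, adjusted p = 0.709 by limma), with 2 arrays below, 2 above and 3 within the fresh-medium range.

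Annexin A2 had the largest ratio of spreads. *Anxa2*, a membrane-binding protein, was at 8.57, 8.52 and 8.40 in AML replicates 1 to 3, at 5.82 and 5.47 in replicates 4 and 5 and at 9.09 and 9.03 in replicates 6 and 7, against 9.41, 9.51 and 9.76 in fresh medium. All 7 AML arrays were below all fresh-medium arrays, and the SD was 1.53 against 0.11, a ratio of 14.2 (spread adjusted p = 0.0211 by limma). The mean fell by 1.69 (SE 0.41, adjusted p = 0.0251), and by 0.812 (adjusted p = 0.000443) without replicates 4 and 5. The call was lost with the AML and fresh-medium arrays alone (adjusted p = 0.0822 by limma), with trend and robust estimation (0.0587), without AML replicate 4 (0.0582) and without fresh-medium replicate 2 (0.0531). *S100a10*, the small partner that binds annexin A2, was also called by the spread test, with an SD of 0.48 against 0.06. *Tspan2*, a tetraspanin, and *Mgarp*, a mitochondrial protein, were lowest in replicates 4 and 5 too, at 4.94 and 5.01 for *Tspan2* and 3.44 and 4.18 for *Mgarp*, against at least 7.31 and 6.52 in fresh medium.

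*Klrk1* and several other receptor genes were stepped. *Klrk1*, which encodes the activating receptor NKG2D, was at 5.36 and 5.11 in AML replicates 4 and 5 and between 7.59 and 7.88 in the other 5 AML arrays, against 7.41, 7.66 and 7.99 in fresh medium. The 5 arrays lay within the fresh-medium range and the 2 below it by about 2 log2 units. Its spread was called (adjusted p = 0.0278 by limma) and its mean difference of -0.63 was not (adjusted p = 0.399), and without replicates 4 and 5 its SD was 0.12, below the 0.20 of fresh medium. *Klrd1* and *Klrc1*, the 2 chains of the CD94/NKG2A receptor, *Cxcr3*, a chemokine receptor of effector cells, and *Itgb3*, an integrin chain, were also among the 60 genes of this pattern. The other 5 arrays were not alike for *Klrd1* and *Klrc1*. *Klrd1* was at 9.33 to 9.46 in replicates 1 to 3 and at 8.69 and 8.37 in replicates 6 and 7. *Klrc1* was at 7.57 to 8.24 and at 7.04 in both, and its mean lay 0.48 above fresh medium, not called by limma. NKG2D and CD94/NKG2A are found on both NK cells and CD8+ T cells. Among the NK cell markers, *Ncr1* and *Klrb1c* lay between 3.24 and 3.60 and between 2.73 and 3.29 in the AML arrays, at the bottom of the scale in all media. *Klre1* was at 5.34 or below in replicates 4 and 5, with up to 6.51 in the other AML arrays and 5.13 to 5.77 in fresh medium. *Eomes*, which CD8+ T cells also express, was at 9.80 in both, against 8.46 to 8.72. The part of NK cells in the result was not tested.

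*Gzma*, which encodes the protease granzyme A, combined a step with a shift of all arrays. It was at 4.91 and 5.16 in AML replicates 4 and 5 and between 7.04 and 7.97 in the other AML arrays, all below the lowest fresh-medium value of 8.09. It fell by 2.23 in the mean (SE 0.40, adjusted p = 0.00324 by limma), and by 1.54 (adjusted p = 0.00844) without replicates 4 and 5. *Gzmb*, the other main granzyme, lay between 11.05 and 11.74 against 11.21 to 11.89 and had similar SDs of 0.26 and 0.30. *Prf1*, the pore-forming protein, had SDs of 0.30 and 0.18 and was at 6.26 and above in replicates 4 and 5, its highest AML values. Of the 5 lytic genes above the level filter, replicates 4 and 5 were the 2 lowest arrays for 2 and the 2 highest for 2. Over all 8584 genes the counts were 1915 and 1406, and 5 genes are too few to set apart from them.

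Other stepped genes lay in or near the fresh-medium range in the other 5 AML arrays. *Lair1*, an inhibitory receptor for collagen, was at 4.79 and 5.26 in replicates 4 and 5 and at 6.84 to 7.27 in the others, against 7.01 to 7.59 in fresh medium. *Ctla2a*, a protease inhibitor, was at 8.19 and 7.75 against 9.85 to 10.02 in the others and 9.42 to 9.96 in fresh medium. *Crmp1*, a cytoskeletal phosphoprotein, was at 4.71 and 5.28 against 6.84 to 7.16 in the others and 6.80 to 7.45 in fresh medium. The spread of each was called (adjusted p = 0.0359, 0.0354 and 0.0499 by limma), and without replicates 4 and 5 each had a smaller SD than in fresh medium.

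Genes of mitosis took the same step as a group, at a smaller size. The mean of 24 mitosis genes was between -0.07 and 0.05 of fresh medium in 5 AML arrays and at -0.52 and -0.50 in replicates 4 and 5, below the fresh-medium range of -0.14 to 0.10. Replicates 4 and 5 were the 2 lowest AML arrays for 23 of 24 genes and both below every fresh-medium array for 18, against 1915 and 1797 of all 8584 genes. *Plk1*, a kinase of mitotic entry, was at 10.32 or below in both against 10.75 to 10.93 in the other AML arrays, and *Aurka*, a spindle kinase, at 8.16 or below against 8.58 to 8.87. *Cdkn3*, a phosphatase of cell cycle kinases outside the list, was called by the spread test (SD 0.53 against 0.08, adjusted p = 0.0354 by limma). No mitosis gene had an SD of 0.5 and only *Cenpa*, a centromere histone, was called lower in the mean (-0.43, adjusted p = 0.0438). *Top2a* and *Mki67* were nearer to the other arrays, at 9.82 and 9.97 against 9.94 to 10.10, and at 11.25 and 11.23 against 11.43 to 11.59. Genes of DNA replication differed less, at -0.25 and -0.20 in replicates 4 and 5 against a fresh-medium range of -0.20 to 0.12.

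The means of the lists for T cell receptor and NF-kB signals were highest in replicates 4 and 5. The mean of 20 immediate early genes was 0.32, 0.44 and 0.31 above fresh medium in AML replicates 1 to 3, 0.66 and 0.70 in replicates 4 and 5 and 0.03 and 0.05 in replicates 6 and 7, against -0.20 to 0.13 in fresh medium. For 15 NF-kB target genes the values were 0.20, 0.16, 0.12, 0.59, 0.57, -0.16 and -0.13, against -0.08 to 0.12. Replicates 4 and 5 were the 2 highest AML arrays for 9 of the 20 and 10 of the 15, against 1406 of all 8584 genes. By limma 3 of the 20 and 1 of the 15 were called higher in the mean, against 2.39% of all genes, and 1 of 15 is too few to set apart from that share. *Nr4a3*, a nuclear receptor induced by antigen signals, was at 11.21 and 11.43 in replicates 4 and 5 and at 8.78 to 9.18 in the other AML arrays, against 8.58, 8.66 and 9.23 in fresh medium. Its spread was called (adjusted p = 0.0389 by limma) and its mean difference of 0.89 was not (adjusted p = 0.138).

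The EGR genes were graded in the upward direction. *Egr2*, a transcription factor of the same early response, was at 7.57, 7.31 and 7.46 in AML replicates 1 to 3, at 8.81 and 8.80 in replicates 4 and 5 and at 7.07 and 7.14 in replicates 6 and 7, against 6.71 to 7.18 in fresh medium. Its spread was called (adjusted p = 0.0389 by limma). *Egr3* was at 8.65 and 8.81 in replicates 4 and 5 against 6.86 to 7.54 in the other AML arrays, and *Egr1* at 10.30 and 10.31 against 8.30 to 8.98. *Egr1* also varied widely in fresh medium, between 6.86 and 8.61. Its SD was 0.82 over the AML arrays against 0.70 there, and its spread was not called (adjusted p = 0.836 by limma). For *Egr3* the SDs were 0.75 and 0.22. *Nfkbid*, an atypical inhibitor of NF-kB, was at 9.73 and 9.61 against 7.41 to 8.08, with a called spread (adjusted p = 0.0354 by limma). The list was not uniform: *Junb* and *Jund* had SDs of 0.16 and 0.10 over the AML arrays and 0.18 and 0.09 in fresh medium, and *Fosb* and *Dusp1* were highest in replicates 1 to 3, where *Dusp1*, a phosphatase of MAP kinases, was at 10.16 to 10.38 against 9.16 to 9.53 in the other 4. The same split was seen for *Dusp1* in fresh medium, at 10.07 to 10.18 against 9.25 to 9.37, and in the DC arrays, at 9.81 to 10.22 against 8.81 to 9.32.

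Most, but not all, of the chemokine and cytokine genes were high in the same arrays. *Ccl3*, a chemokine made after T cell activation, was at 9.26 and 9.21 in AML replicates 4 and 5 and at 5.88 to 7.02 in the others, against 5.54 to 6.63 in fresh medium; its spread was not called (adjusted p = 0.0609 by limma). *Xcl1*, a further chemokine, was at 7.83 and 7.70 against 5.96 to 6.69 in the others and 5.27 to 6.53 in fresh medium. The mean of the 10 of 24 effector cytokine genes that passed the level filter was 0.45, 0.72, 0.52, 1.25, 1.38, 0.15 and 0.15 in the order of the replicates, against -0.29 to 0.38 in fresh medium. Of these 10, *Tnf*, *Lta*, *Lif* and *Osm* were called higher in the mean by limma and *Ccl5* lower. *Xcl1* reached down to 5.27 in fresh medium, under the level filter, and its AML arrays may have carried it past. No test is given for it. Over all genes the shares called were 2.39% higher and 2.66% lower. *Tnf* lost its call without AML replicates 4 and 5 (0.957, adjusted p = 0.104 by limma). Those replicates were the 2 highest AML arrays for 7 of the 10, against 1406 of all 8584 genes. *Osm* was instead highest in replicates 1 and 2, at 8.30 and 8.31. The SD was larger in AML than fresh-medium arrays for 6 of the 10, against 4607 of all 8584 genes. It was not larger for *Tnf* (0.59 against 0.60), *Lif* (0.58 against 0.63) and *Osm* (0.48 against 0.50).

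**Figure D5:**
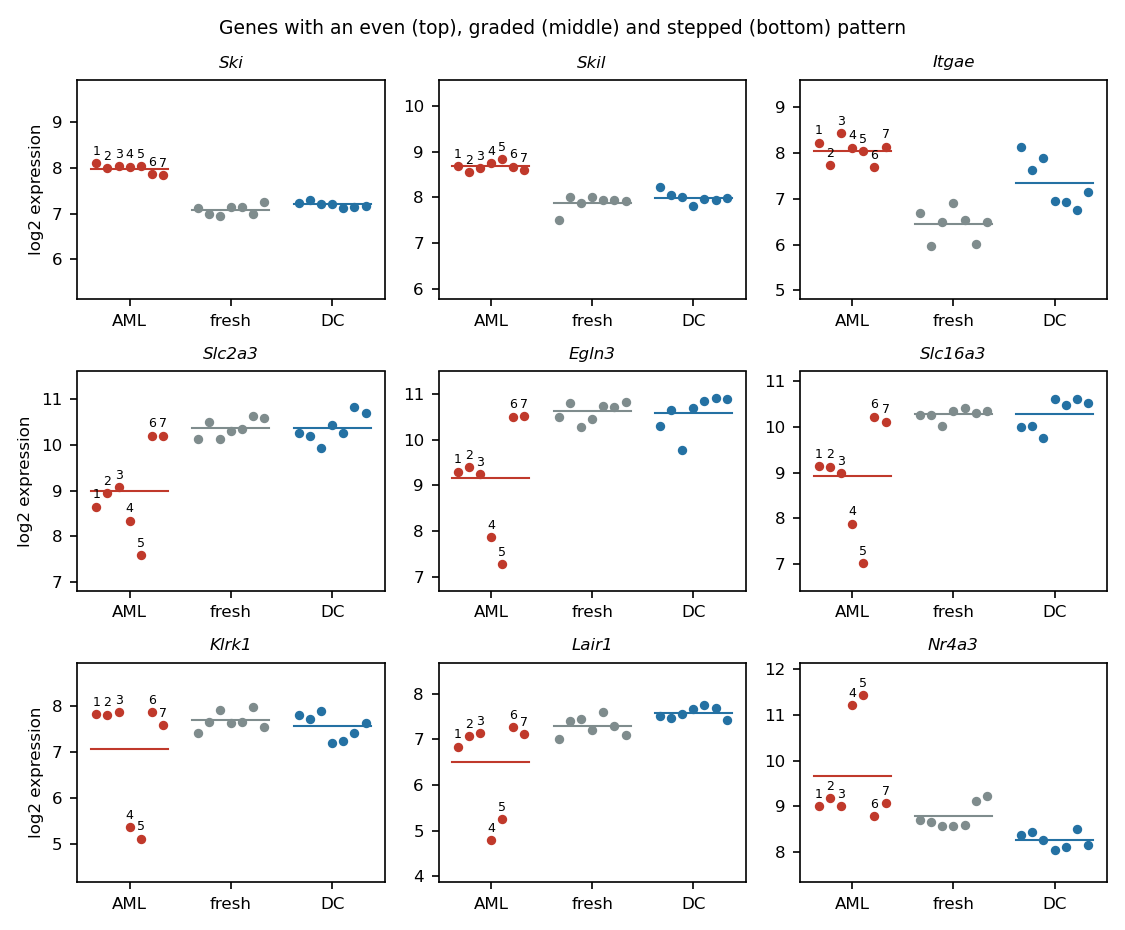
Log2 level of 9 genes in every array, with bars at the group means and replicate numbers for the AML group. Top, evenly raised genes; middle, graded genes; bottom, stepped genes, in which AML replicates 4 and 5 lie apart from the other 5. DC stands for medium of dendritic cells.

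A further set of genes lay beyond fresh medium in every AML array. All 7 AML arrays were above all 7 fresh-medium arrays for 63 genes (0.734%) and below them for 71 (0.827%). Among the genes called in the mean by limma, 54 of 205 higher and 60 of 228 lower genes had all 7 arrays beyond fresh medium. These counts do not measure evenness, since *Anxa2*, *Mgarp* and *Gzma* are among them. The evenest of those with a difference of at least 0.5 were chosen by their small SD relative to the difference, so their values are a description of selected genes.

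*Ski*, a repressor of SMAD proteins that TGF-beta signals also regulate, was the evenest raised gene. It was at 8.10, 7.99, 8.04, 8.03, 8.04, 7.86 and 7.84 in AML replicates 1 to 7, against 6.95, 7.12 and 7.25 in fresh medium and 7.12 to 7.31 in the DC arrays. The mean rose by 0.90 (SE 0.06, adjusted p = 4.31e-09 by limma), and the SD was 0.10 against 0.11. Replicates 4 and 5 were in the middle of the group and replicates 6 and 7 only slightly lower. *Skil*, its close relative and a direct TGF-beta target, lay between 8.55 and 8.83 in the AML arrays against a fresh-medium median of 7.93, without overlap, and rose by 0.79 (SE 0.08, adjusted p = 1.94e-06). *Itgae*, the integrin chain CD103, lay between 7.70 and 8.43 against 5.97 to 6.91, and rose by 1.62 (SE 0.19, adjusted p = 2.53e-05), with an SD of 0.26 against 0.34. A higher level of *Itgae* was not particular to the AML arrays. The DC arrays lay between 6.75 and 8.14, and their replicates 1 and 3, at 8.14 and 7.90, were within the AML range. The DC mean was 7.35, against 8.06 in AML and 6.44 in fresh medium.

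The members of the TGF-beta list above the level filter were even as a mean, and 2 members below it were not. The mean of the 14 genes above the filter was 0.38, 0.38, 0.42, 0.42, 0.41, 0.20 and 0.32 above fresh medium in AML replicates 1 to 7, against -0.14 to 0.11 in fresh medium and -0.07 to 0.27 in the DC arrays. Against the fresh-medium array of the same number the values were 0.39, 0.37, 0.40, 0.31, 0.37, 0.34 and 0.35. None of the 14 had an SD of at least 0.5, and the median SD ratio was 1.10. By limma 5 genes were called higher and 1 lower, against 2.39% and 2.66% of all genes. The 1 lower gene is too few to set apart from that share. *Pmepa1*, a feedback inhibitor of SMAD signalling, rose by 0.82 (SE 0.08, adjusted p = 1.94e-06) and was the least even of the raised members relative to fresh medium, between 7.36 and 7.99 in the AML arrays against 6.79 to 6.95. *Tgfbr1*, the type I receptor, was stepped: it was at 8.01 and 8.27 in replicates 4 and 5 and at 7.41 to 7.57 in the others, all above the fresh-medium range of 6.87 to 7.27. *Smad3*, a signal carrier of the pathway, was the lower member, at 8.38 to 8.93 against 9.01 to 9.62. *Ccr8*, a chemokine receptor, and *Gpr83*, an orphan receptor, are on the list but below the level filter. *Ccr8* was at 7.84, 7.51 and 6.88 in AML replicates 1 to 3, at 8.05 and 8.31 in replicates 4 and 5 and at 5.51 and 6.30 in replicates 6 and 7, against 4.46 to 6.25 in fresh medium. *Gpr83* was at 8.15 and 8.83 in replicates 4 and 5 and at 5.46 to 6.40 in the other 5, against 4.74 to 5.59. Both had a wider spread than any of the 14, with SDs of 1.02 and 1.25. The SD of the list mean over the AML arrays was 0.0798 with the 14 genes and 0.18 with the filter lowered to a level of 5. It was 0.0388 without AML replicate 6, 0.0215 without replicates 6 and 7 and 0.03 against the number-matched fresh-medium arrays.

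Even genes outside that list covered several functions. Among the raised genes, *Rragd*, a GTPase of nutrient sensing, lay between 6.55 and 7.04 against 5.46 to 6.25, *Igfbp4*, a binding protein of insulin-like growth factors, between 7.76 and 8.21 against 6.67 to 7.63, and *Hipk2*, a nuclear kinase, between 9.46 and 9.90 against 8.71 to 9.38. *Timp2*, an inhibitor of metalloproteinases, rose by 0.58 (SE 0.09, adjusted p = 0.00077 by limma). *Tlr7*, an endosomal sensor of RNA, was called by limma (adjusted p = 3.14e-06, difference 1.38, SE 0.14) and was highest in replicates 1 to 3, at 9.29 to 9.60, against 8.56 to 9.02 in the other AML arrays and 7.34 to 7.96 in fresh medium. Among the lowered genes, *Eif2ak3*, the stress kinase PERK, lay between 8.21 and 8.76 against 8.86 to 9.18 and *Eya2*, a transcriptional co-regulator, between 6.05 and 6.72 against 7.00 to 7.64.

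Some of the lowered genes kept an order among the arrays. *Itga7*, a laminin-binding integrin chain, fell by 1.81 (SE 0.19, adjusted p = 3.14e-06 by limma) and still held the graded order: 5.25, 5.17 and 5.38 in replicates 1 to 3, 4.69 and 4.67 in replicates 4 and 5, and 6.05 and 6.09 in replicates 6 and 7, against 6.68 to 7.52 in fresh medium. *Gsn*, the actin-severing protein gelsolin, and *Cym*, a chymosin gene, fell by 1.13 and 1.25 and were both lowest in replicates 4 and 5. Of the 8 raised genes chosen as even, those other than *Rragd* kept their call by limma without AML replicates 4 and 5. *Rragd* passed the level filter only through the AML arrays, so no test is given for it. Its means were 6.81 in the AML arrays, 5.84 in fresh medium and 6.06 in the DC arrays. Of the 8 lowered genes *Smad3* (adjusted p = 0.0549) and *Serpinb6b* (adjusted p = 0.0528), a serpin, lost the call by limma without those replicates.

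The reading of a further group of genes depended on which fresh-medium arrays served as reference. The mean of 15 STAT5 target genes was 0.58, 0.71, 0.38, 0.64, 0.82, 0.27 and 0.36 above the fresh-medium mean in AML replicates 1 to 7, but the fresh-medium arrays themselves ran from -0.29 to 0.53. Against the fresh-medium array of the same number, replicates 1 to 5 were at 0.67 to 0.90 and replicates 6 and 7 at -0.05 and -0.16. *Cish*, a feedback inhibitor of cytokine signals, was at 7.27 and 7.70 in AML replicates 6 and 7 and at 7.71 to 9.34 in the other 5, with fresh medium between 5.80 and 7.67. It had an SD of 0.72 in AML and 0.69 in fresh medium, so that a gene can vary widely among AML arrays without varying more than in fresh medium.

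Genes of amino acid shortage and interferon response showed other orders. For 22 target genes of ATF4, the transcription factor of amino acid shortage, the list mean was 0.42, 0.49, 0.24, 0.65, 0.78, 0.12 and 0.11, against -0.19 to 0.18 in fresh medium and -0.42 to 0.29 in the DC arrays. *Nupr1*, a stress-induced nuclear protein of that list, was at 6.94, 7.46 and 6.38 in replicates 1 to 3, at 7.45 and 7.67 in replicates 4 and 5 and at 5.66 and 5.83 in replicates 6 and 7, against 5.67 to 5.94. Its mean passed the level filter only through the AML arrays, so no p-value is given for it. For 7 interferon-stimulated genes the list mean was highest in replicates 1 to 3, at 0.47, 0.56 and 0.58, with 0.35 and 0.39 in replicates 4 and 5 and 0.24 and -0.06 in replicates 6 and 7. The median SD of 14 cytosolic ribosome genes was 0.09 over the AML arrays and 0.05 in fresh medium, and that of 12 housekeeping genes 0.12 and 0.08. *Actb* and *Ppia* had SDs of 0.04 and 0.04 over the AML arrays.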

How the data were processed

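The deposited table holds log2 expression values, 1 per transcript cluster and array, which the authors obtained by RMA. The submitters' processing notes name oligo, an R package, for this. No version is given in the sources used here. Of 22203 transcript clusters 19572 had 1 gene symbol in the platform annotation and 2631 none. For 55 symbols with several clusters the one with the highest mean was kept, which left 19505 genes, and 8584 had a mean log2 level of at least 6. RMA puts the arrays on a common distribution, so a shift of all genes in an array would not be seen.

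The group means were compared by limma (3.58.1, under R 4.3.3) over all 19505 genes and 21 arrays, with 1 spread estimate per gene for the 3 groups and Benjamini-Hochberg adjustment at 0.05. Spread was tested with the same model on absolute deviations from the group mean, scaled for group size. Precision is limited by the 7 arrays per group. The p-values weigh a difference against the spread between these arrays and treat each array as independent. Whether any arrays share a mouse, a day or a batch of medium is not stated.

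Named genes were those with a called spread and the largest SD, those called in the mean with the smallest SD relative to a difference of at least 0.5, the extremes of the first 2 components of the AML arrays, genes named for their pathway and members of the lists described. Components were computed on gene-centred values, for each medium on its own. *S100a10*, *Klrd1*, *Klrc1*, *Cxcr3*, *Itgb3* and the cell type markers given by name were added after their values were seen. Members, lists and alternatives were chosen with earlier results of these data known. Promoters were searched on both strands. Figures were drawn with matplotlib 3.10.9 and pandas 2.3.3. Clusters without a symbol were left out.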

Additional observations from a re-analysis of the deposited data

Results flagged for a closer look

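Part of the named genes and of the gene list means were checked in each medium, which gave 150 groups of 7 arrays. The highest or lowest array was compared with the others by Dixon's ratio. Of the groups 5 passed its critical value for 7 arrays, where chance gives about 1 in 20. None of the 5 was in the AML arrays, where replicates 4 and 5 lie together and the ratio does not single out a pair. *Anxa2* in fresh medium was highest in replicate 2 at 9.76, next to 9.56. *Mgarp* was highest in DC replicate 6 at 7.06, next to 6.81. *Skil* in fresh medium was lowest in replicate 1 at 7.5, next to 7.87. *Arhgap39* in fresh medium was highest in replicate 7 at 7.07, next to 6.85. *Slc16a3* in fresh medium was lowest in replicate 3 at 10.01, next to 10.26.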

How the results depend on the processing

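The 35 genes with a wider spread in the AML arrays became 0 with deviations from the group median, 0 with squared deviations, 0 with the AML and fresh-medium arrays alone and 0 with the replicate block. They became 12 with deviations taken within replicates 1 to 3 and 4 to 7, 22 after a further quantile normalization, 104 with only genes of at least 6 fitted, 143 with trend and robust estimation, 15 without AML replicates 4 and 5 and 400 without replicates 6 and 7. Leaving out 1 array gave 0 to 223. The 205 higher and 228 lower genes became 96 and 96 with the AML and fresh-medium arrays alone, 429 and 382 with the replicate block, 373 and 403 with only genes of at least 6 fitted, 43 and 47 without AML replicates 4 and 5, and 421 and 470 without replicates 6 and 7, with 76 to 290 and 98 to 350 when 1 array was left out. The 183 genes with an SD of at least 0.5 became 49 without replicates 4 and 5, and 134 to 210 without 1 array. The cause was not tested.

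Without AML replicates 4 and 5 the sign of the difference in mean deviation turned for *Lad1* (-0.109), *Nr4a3* (-0.137), *Mrpl17* (-0.012), *Klrk1* (-0.0739), *Lair1* (-0.0582), *Crmp1* (-0.0779), *Ctla2a* (-0.107) and *Tg* (-0.0139). The mean of *Ski* rose by 0.876 to 0.953 in 33 alternatives, with the call kept in each.

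In their deviations from the group means, over genes, arrays of the same number were correlated at -0.13 to 0.39 between AML and fresh medium, at 0.15 to 0.50 between AML and DC and at 0.02 to 0.60 between fresh medium and DC. The numbers carry some structure, but not every AML and fresh-medium pair exceeded 0.1, so the replicate block is given as an alternative.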

Other observations

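Metabolic and biosynthetic gene lists showed further orders among the AML arrays. The mean of 20 genes of MYC and ribosome biogenesis was 0.56 and 0.70 above fresh medium in replicates 4 and 5. It was between -0.04 and 0.19 in the other 5, against -0.22 to 0.32 in fresh medium. Replicates 4 and 5 were the 2 highest arrays for 16 of the 20, against 1406 of all 8584 genes. For 16 genes of cholesterol synthesis the order was the reverse, with -0.23 and -0.18 in replicates 4 and 5, 0.08 to 0.10 in replicates 1 to 3 and 0.34 and 0.27 in replicates 6 and 7, against -0.23 to 0.19 in fresh medium. For 15 genes of fatty acid oxidation the mean was -0.34 and -0.37 in replicates 4 and 5 and between -0.11 and 0.02 in the others, against -0.08 to 0.05. The 24 genes of oxidative phosphorylation lay between -0.11 and -0.01 in all 7 AML arrays, against -0.09 to 0.06. These values are descriptions, with no test of the lists.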
